A study of Neurospora crassa with 16 samples.

Results

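The heterokaryon incompatibility genes described here are het-c (NCU03493), pin-c (NCU03494), het-6 (NCU03533) and vib-1 (NCU03725) of the filamentous fungus Neurospora crassa. They were chosen by gene identifier, not by their values, and make up 4 of the 9730 genes in the deposited tables. All 4 identifiers carry these symbols in the RefSeq annotation of assembly NC12. The study asked how the loss of epr-1, the gene of a chromatin protein that reads methylated lysine 27 of histone H3, changes gene expression beside the loss of set-7, the gene of the methyltransferase that places this mark. Poly(A) RNA-seq was made for 2 ∆epr-1 strains, in which the hph resistance cassette replaces the gene, replicate 1 being mat a and replicate 2 mat A. The cultures, labelled as germinated conidia, were shaken for 16 h at 32 °C in Vogel's minimal medium with 1.5% sucrose. Wild type and ∆set-7 came from an earlier series, and their values here are those of the authors' comparison tables. The header of the count table gives the same strain name to both wild-type libraries and different names to the ∆set-7 libraries.

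Hyphae of different Neurospora individuals can fuse, and incompatibility genes decide whether the mixed cell, a heterokaryon, survives. Where the fused strains carry unlike alleles, the fusion cell is walled off and dies. HET-C is a cell-surface glycine-rich protein, and it triggers this death together with the product of its neighbour pin-c, which carries a HET domain, a module found in many fungal incompatibility proteins. HET-6 is another HET-domain protein, encoded close to un-24, the gene of the large subunit of ribonucleotide reductase, with which it acts. VIB-1 is a transcription factor of the Ndt80 family, required for the death reaction and for expression of pin-c, het-6 and tol. It also takes part in the response to poor carbon sources. Strains can differ in the alleles of het-c, pin-c and het-6, the alleles of the strains used are not stated in the labels, and their part in the values below was not tested.

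The 2 ∆epr-1 libraries held 10434667 and 10562443 reads in genes. The deleted gene itself, NCU07505, kept 60 and 53 reads, and stood at a log2 fold of -2.33 against wild type in the authors' deposited table. The set-7 gene stood at -1.65 in ∆set-7 (SE 0.64, adjusted Wald p = 0.0460) in the authors' deposited table, a call that is lost at an adjusted p below 0.01, and the results for ∆set-7 rest on that label. All ∆epr-1 libraries came from one series and all wild-type and ∆set-7 libraries from another, so genotype and series cannot be told apart in any comparison that includes ∆epr-1. Between ∆epr-1 and wild type the deposited entries for unmapped and ambiguous reads also differed, with log2 folds of -0.84 and -0.87 in the authors' deposited table. Between ∆epr-1 and ∆set-7 these entries differed too, with -0.41 and -0.68. Their part in the results was not tested. The p-values rest on the spread between the libraries of the whole fit, which is partly a spread between strains and, for wild type, one between libraries of the same strain name.

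In ∆epr-1 het-6 was lower than in wild type and the other 3 genes were not called, while in ∆set-7 het-c was lower and the other 3 were not called. Of the 12 values of 4 genes in 3 comparisons, 3 passed an adjusted p below 0.05, namely het-6 in ∆epr-1 against wild type, het-6 in ∆epr-1 against ∆set-7 and het-c in ∆set-7 against wild type. Against wild type, 1 of 4 genes was called in ∆epr-1, where 47.8% of all 8624 tested genes were called 24.5% as lower and 23.3% as higher. In ∆set-7, 1 of 4 was called, where 21.8% of 8254 tested genes were called 11.6% as lower and 10.3% as higher. Between the mutants, 1 of 4 was called, where 45.9% of 8809 tested genes were called 23.8% as lower in ∆epr-1 and 22.1% as higher. With only 4 genes, a count of 1 lies near or below each of these background shares, so nothing is read from the counts. The median log2 fold of the 4 genes was -0.20, -0.07 and 0.03 in these comparisons by the authors' deposited tables, against 0.00, 0.00 and 0.01 over all tested genes.

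**Figure D1:**
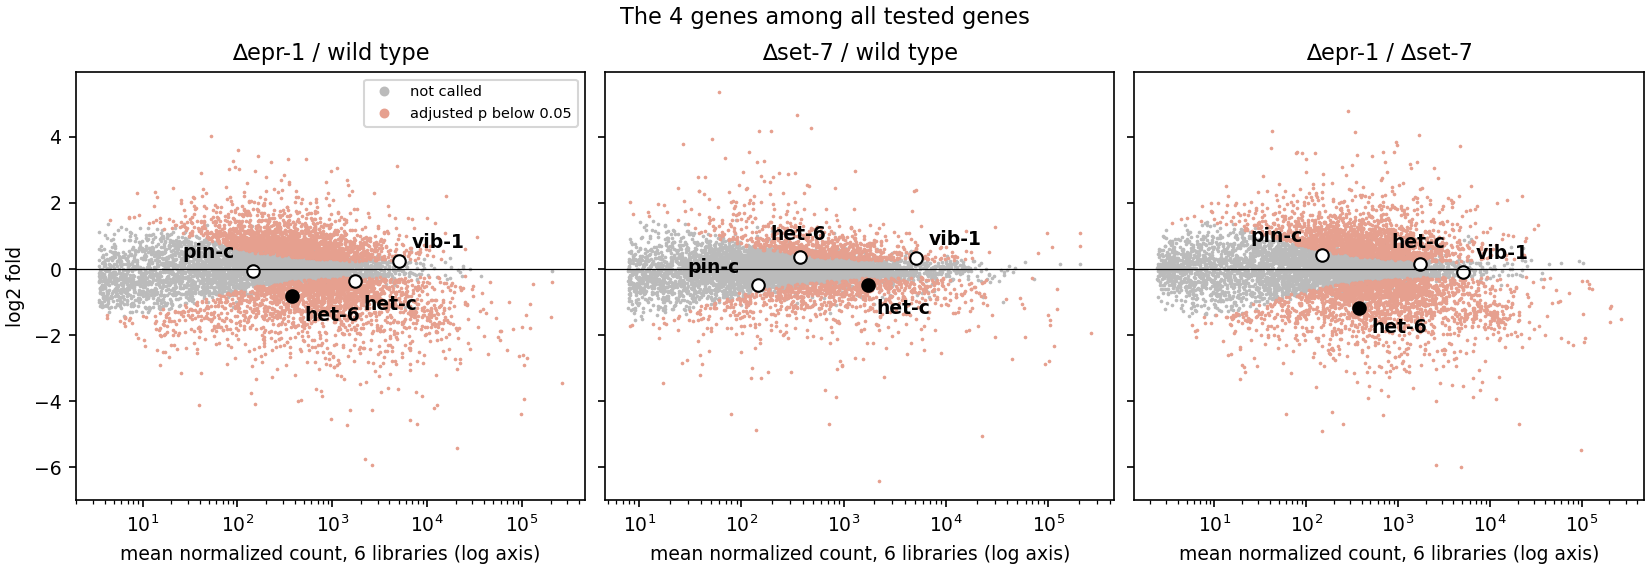
Log2 fold (vertical axis) against the mean normalized count over 6 libraries (horizontal log axis) for every tested gene in 3 comparisons, from the authors' deposited tables. Large circles are the 4 incompatibility genes, filled where the adjusted p is below 0.05. The filled circles are het-6 at -0.81 and -1.18 in the panels with ∆epr-1 and het-c at -0.49 in the ∆set-7 panel, and each lies inside the cloud of called genes.

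The HET-domain gene het-6 fell in ∆epr-1. In these bulk cultures, fewer cells with the transcript and less transcript per cell cannot be told apart. It held 240 reads in the mat a library (95% Poisson interval 211 to 272) and 285 in the mat A library (253 to 320). In normalized counts, reads divided by the size factor of each library, these were 196 and 242, with a mean of 219 ± 32.4 (SD, n = 2). The levels that the authors' deposited folds and overall mean imply were 389.8 normalized counts for wild type and 505 for ∆set-7, so both ∆epr-1 libraries lay below both. The same arithmetic gave 222 for ∆epr-1, or 1.02 times the measured mean. Against wild type the log2 fold was -0.81 (SE 0.20, adjusted Wald p = 0.000195) by DESeq2 in the authors' deposited table, which is 0.571-fold with a 95% interval of 0.435 to 0.748. Of the tested genes, 15.9% had a lower fold. In ∆set-7 the log2 fold of het-6 was 0.37 (SE 0.20, adjusted Wald p = 0.176) in the authors' deposited table, with a 95% interval from -0.01 to 0.76. Set directly against ∆set-7, het-6 in ∆epr-1 stood at a log2 fold of -1.18 (SE 0.20, adjusted Wald p = 3.12e-08) in the authors' deposited table, and 8.79% of tested genes stood lower. The order of levels was thus ∆set-7, wild type and ∆epr-1, of which the first pair did not pass the test and the second did.

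**Figure D2:**
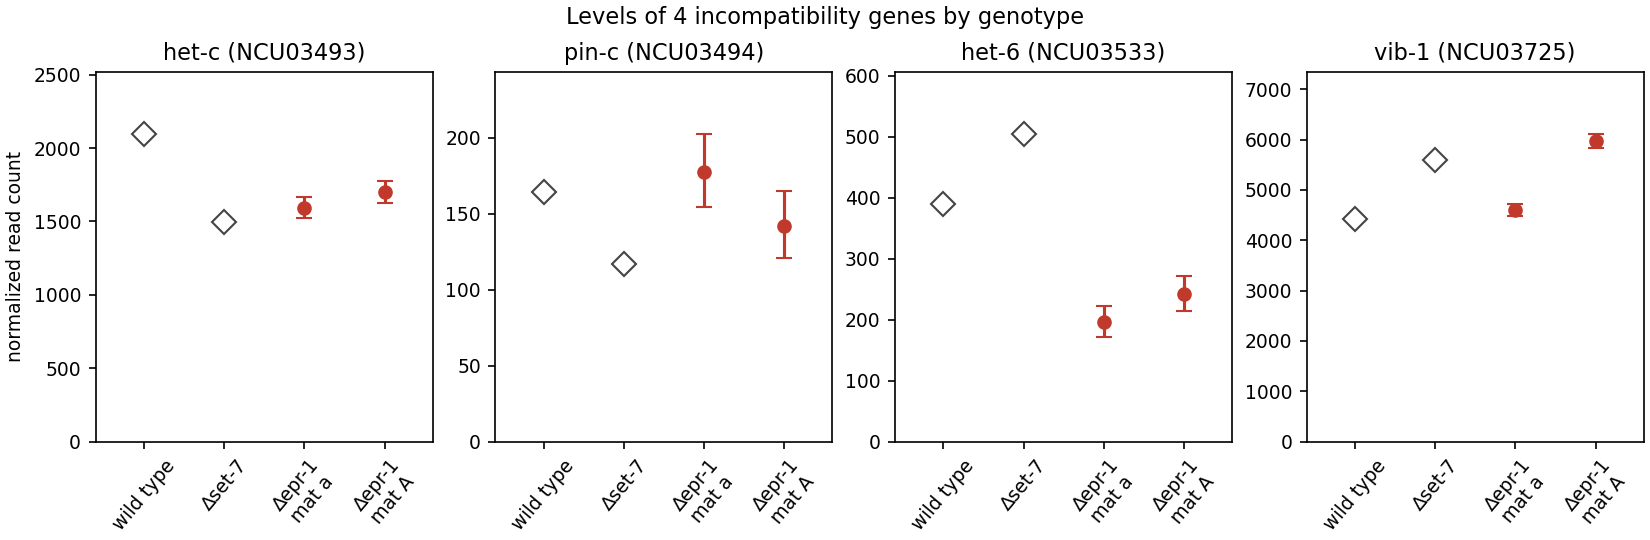
Normalized read counts (vertical axes from 0) of each gene. Red points are the 2 ∆epr-1 libraries with 95% Poisson intervals, which cover counting error only, and open diamonds are levels of wild type and ∆set-7 implied by the authors' deposited folds and overall mean, which have no error bar. For het-6 the ∆epr-1 libraries, at 196 and 242, lie below both diamonds, and for vib-1 they lie on either side of the ∆set-7 diamond at 5589.

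The gene het-c, whose product is found at the cell surface, was lower in ∆set-7 than in wild type. Its ∆epr-1 libraries were close to each other, with 1949 reads (1863 to 2037) in mat a and 2002 (1915 to 2092) in mat A. These were 1593 and 1700.05 normalized counts, with a mean of 1647 ± 75.5 (SD, n = 2). Implied levels were 2097 normalized counts in wild type and 1494 in ∆set-7, so the ∆epr-1 libraries lay between them. The log2 fold of ∆set-7 against wild type was -0.49 (SE 0.16, adjusted Wald p = 0.0154) in the authors' deposited table, or 0.712-fold with a 95% interval of 0.571 to 0.888. This call was no longer made at an adjusted p below 0.01. In ∆epr-1 the log2 fold was -0.35 (SE 0.16, adjusted Wald p = 0.0621) in the authors' deposited table and missed the threshold. The direct contrast of the mutants gave 0.14 (adjusted Wald p = 0.513, 95% interval -0.18 to 0.46) in the authors' deposited table. In the order wild type, ∆epr-1 and ∆set-7, only the outer levels therefore differed past the threshold.

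Its neighbour pin-c, the HET-domain partner of het-c, was not called in any comparison, nor did it pass an unadjusted p below 0.05 in the authors' deposited tables. It had 217 reads (189 to 248) in the mat a library and 167 (143 to 194) in the mat A library of ∆epr-1, or 177 and 142 normalized counts, with a mean of 159.6 ± 25.2 (SD, n = 2). The implied levels of 164 normalized counts in wild type and 117 in ∆set-7 lay inside and below the range of the ∆epr-1 libraries. Against wild type the log2 fold in ∆epr-1 was -0.05 (SE 0.28, adjusted Wald p = 0.906) in the authors' deposited table, with a 95% interval that reached from 0.657-fold to 1.42-fold. In ∆set-7 it was -0.49 (SE 0.29, adjusted Wald p = 0.253) in the authors' deposited table, the same size as the called fall of het-c but with a wider error. The direct contrast gave 0.44 (adjusted Wald p = 0.227, 95% interval -0.14 to 1.02) in the authors' deposited table.

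The regulator gene vib-1 was also not called in any comparison, nor at an unadjusted p below 0.05. Its ∆epr-1 libraries held 5634 reads (5488 to 5783) in mat a and 7036 (6873 to 7202) in mat A, or 4606 and 5975 normalized counts, with a mean of 5290.2 ± 968 (SD, n = 2). The implied levels were 4416 normalized counts in wild type and 5589 in ∆set-7, so the mat a library lay near the former and the mat A library above the latter. The log2 folds against wild type were 0.26 (SE 0.20, adjusted Wald p = 0.288, 95% interval -0.13 to 0.65) in ∆epr-1 and 0.34 (SE 0.20, adjusted Wald p = 0.238, 95% interval -0.05 to 0.73) in ∆set-7, by the authors' deposited tables. The fold in ∆epr-1 was 0.43 without the mat a library and 0.06 without the mat A library, and neither was called. Between the mutants the log2 fold was -0.08 (adjusted Wald p = 0.788) in the authors' deposited table. The counting intervals of both ∆epr-1 libraries were narrow beside the gap between them.

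**Figure D3:**
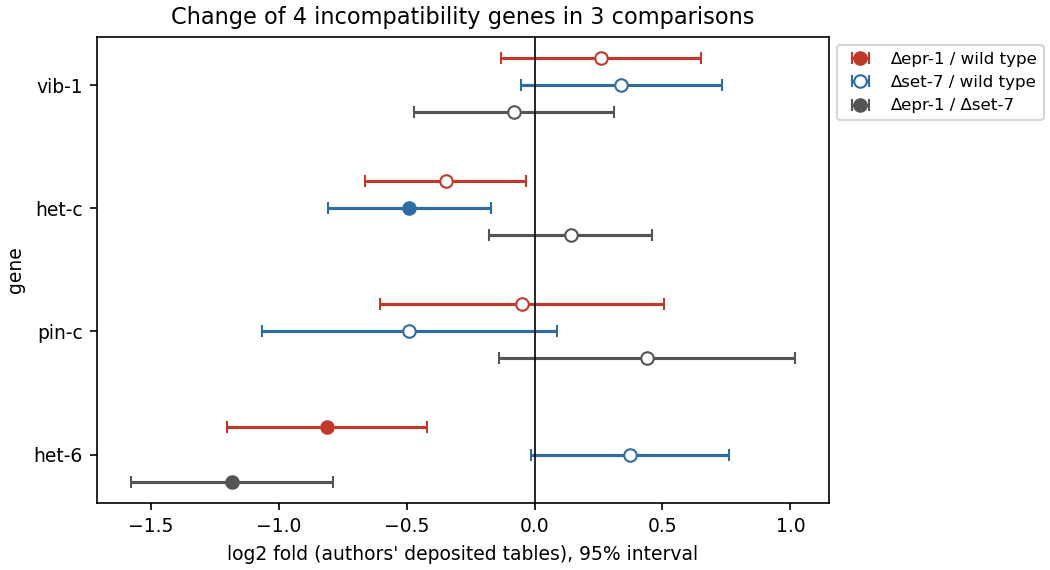
Log2 folds (horizontal axis) of the 4 genes in 3 comparisons from the authors' deposited tables, with 95% intervals from the deposited standard errors. Filled circles have an adjusted p below 0.05, and the 2 filled circles of het-6, at -0.81 and -1.18, and the filled circle of het-c, at -0.49, are the calls.

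The 2 ∆epr-1 libraries, which differ in mating type, were compared gene by gene as a description without a test. The mat A library over the mat a library gave 1.07 for het-c (95% interval 1.00 to 1.14), 0.799 for pin-c (0.649 to 0.983), 1.23 for het-6 (1.04 to 1.47) and 1.30 for vib-1 (1.25 to 1.34), where intervals cover counting error only. For the 8030 genes whose mean reached 10 normalized counts, the log2 ratio of these libraries had an SD of 0.34. The ratio of vib-1, at a log2 of 0.38, was larger in size than that of 83.4% of these genes, that of pin-c, at -0.32, than 78.4%, that of het-6, at 0.30, than 76.3%, and that of het-c, at 0.09, than 34.3%. In size the ratio was thus smallest for het-c and largest for vib-1, though the counting interval of het-6 overlapped those of both vib-1 and het-c. Taken as a size, the interval of pin-c overlapped those of vib-1 and het-c too. Strain, mating type and library cannot be told apart here. The fall of het-6 in ∆epr-1 exceeded the difference between its libraries.

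Other incompatibility genes were described from a list of 12 symbols, of which 3 were named in the annotation. In ∆epr-1 against wild type 1 of these 3 rose and 0 fell, in ∆set-7 0 passed, also at an unadjusted p below 0.05 by DESeq2, and in the direct contrast 1 was higher, where 47.8%, 21.8% and 45.9% of all tested genes were called. The gene that rose was un-24, the partner of het-6, with 3408 and 2945 reads in the ∆epr-1 libraries and a log2 fold of 0.50 (SE 0.14, adjusted Wald p = 0.00099) in the authors' deposited table. Its log2 fold was -0.25 (adjusted Wald p = 0.209) in ∆set-7 and 0.75 (adjusted Wald p = 5e-07) between the mutants in the authors' deposited tables. Each fold was opposite in sign to that of het-6, but in ∆set-7 neither gene was called. The fold between the mutants follows from the folds against wild type, so its sign is no separate observation. The HET-domain gene tol, needed for incompatibility between mating types, had 193 and 186 reads and log2 folds of 0.07 in ∆epr-1 and 0.25 in ∆set-7 in the authors' deposited tables (adjusted Wald p = 0.823 and 0.487). The mating type gene matA-1, itself an incompatibility locus, held 0 reads in the mat a library, where a count of 0 allows up to 3 reads, and 62 in the mat A library. The ∆epr-1 group mixes mating types, so its folds were not read as effects of the deletions.

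Of 8 symbols of transcription factors and stress signalling genes known beside vib-1, 6 were named in the annotation, and 3 of these rose and 2 fell in ∆epr-1 against wild type. In ∆set-7 0 rose and 1 fell, and between the mutants 2 were higher and 1 lower in ∆epr-1. The shares of all tested genes called in these comparisons were 47.8%, 21.8% and 45.9%. The gene fsd-1, an Ndt80-family factor of sexual development, rose in ∆epr-1 by a log2 fold of 0.89 (SE 0.18, adjusted Wald p = 7.93e-06) in the authors' deposited table. In ∆set-7 it stood at -0.14 (adjusted Wald p = 0.687), also by the authors' deposited table. The carbon catabolite repressor gene cre-1 rose by 0.60 (adjusted Wald p = 6.07e-06) and clr-1, a regulator of cellulose use, by 0.45 (adjusted Wald p = 0.00175) in the authors' deposited table of ∆epr-1. The other cellulose regulator, clr-2, fell, with a log2 fold of -1.54 (SE 0.47, adjusted Wald p = 0.00338) in the authors' deposited table, with only 10 and 15 reads in the ∆epr-1 libraries. The gene col-26, a regulator of starch and glucose use, fell in both mutants, with log2 folds of -1.11 (adjusted Wald p = 9.68e-22) and -0.92 (adjusted Wald p = 7.43e-14) in the authors' deposited tables. The xylanase regulator gene xlr-1 stood at -0.46 (adjusted Wald p = 0.0644) in ∆epr-1 in the authors' deposited table.

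**Figure D4:**
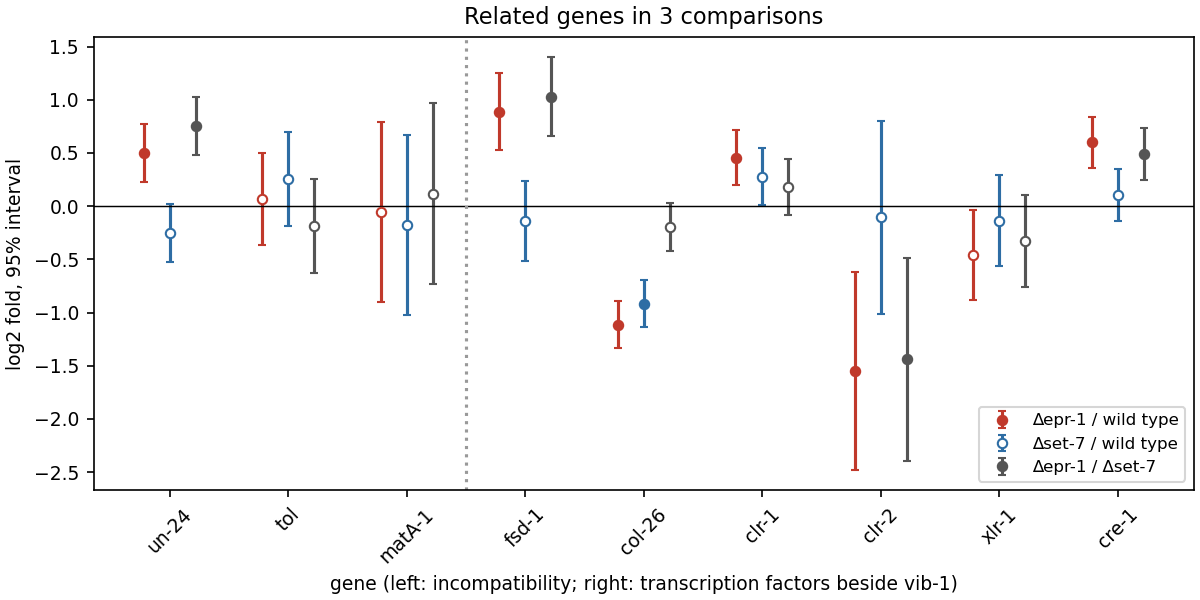
Log2 folds (vertical axis) with 95% intervals of 3 incompatibility genes, left of the dotted line, and 6 transcription factor genes, right of it, in 3 comparisons from the authors' deposited tables. Filled circles have an adjusted p below 0.05. The rises of un-24 (0.50) and fsd-1 (0.89) in ∆epr-1 and the fall of col-26 in both mutants (-1.11 and -0.92) stand clear of 0.

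The genes beside each locus are given as counts without a test of whether they moved together. Over all tested genes, 23.3% were higher and 24.5% lower in ∆epr-1, and 10.3% and 11.6% in ∆set-7. Of the 10 genes annotated around het-6, 8 were tested in ∆epr-1 against wild type, with 1 higher and 2 lower, and log2 folds from -1.46 to 0.55 around a median of 0.05 in the authors' deposited table. In ∆set-7 7 were tested, with 2 higher and 0 lower. One neighbour was called in all 3 comparisons, the sulfur regulator gene cys-3, at 0.55 (adjusted Wald p = 0.00097) in ∆epr-1, 1.09 (adjusted Wald p = 4.71e-11) in ∆set-7 and -0.54 (adjusted Wald p = 0.00136) between the mutants in the authors' deposited tables. The gene next to het-6, NCU03534, picked out after its values were seen, stood at 1.57 (adjusted Wald p = 0.00159) in ∆set-7 and -0.16 (adjusted Wald p = 0.788) in ∆epr-1 in the authors' deposited tables.

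Around het-c, 8 of 10 genes were tested, pin-c among them, and 5 were higher and 1 lower in ∆epr-1 (23.3% and 24.5% of all genes), with a median of 0.48 in the authors' deposited table, while het-c itself stood at -0.35. In ∆set-7 0 were higher and 1 lower. That gene was NCU03492, next to het-c and also picked out after its values were seen, with -0.90 (adjusted Wald p = 4.61e-06) in ∆set-7 and -0.72 (adjusted Wald p = 0.000147) in ∆epr-1 in the authors' deposited tables. Around pin-c, which shares most of its neighbours with het-c, 4 of 8 tested genes were higher and 2 lower in ∆epr-1. In ∆set-7 0 of these were higher and 2 lower, het-c among them. Around vib-1, 4 of 8 tested genes were higher and 0 lower in ∆epr-1, and 2 higher and 0 lower in ∆set-7, beside 23.3% and 24.5% of all genes in the former and 10.3% and 11.6% in the latter. The log2 folds of these neighbours in ∆set-7 ran from 0.01 to 0.76 in the authors' deposited table, with vib-1 itself at 0.34. None of the 4 incompatibility genes overlaps a neighbour in the NC12 annotation.

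**Figure D5:**
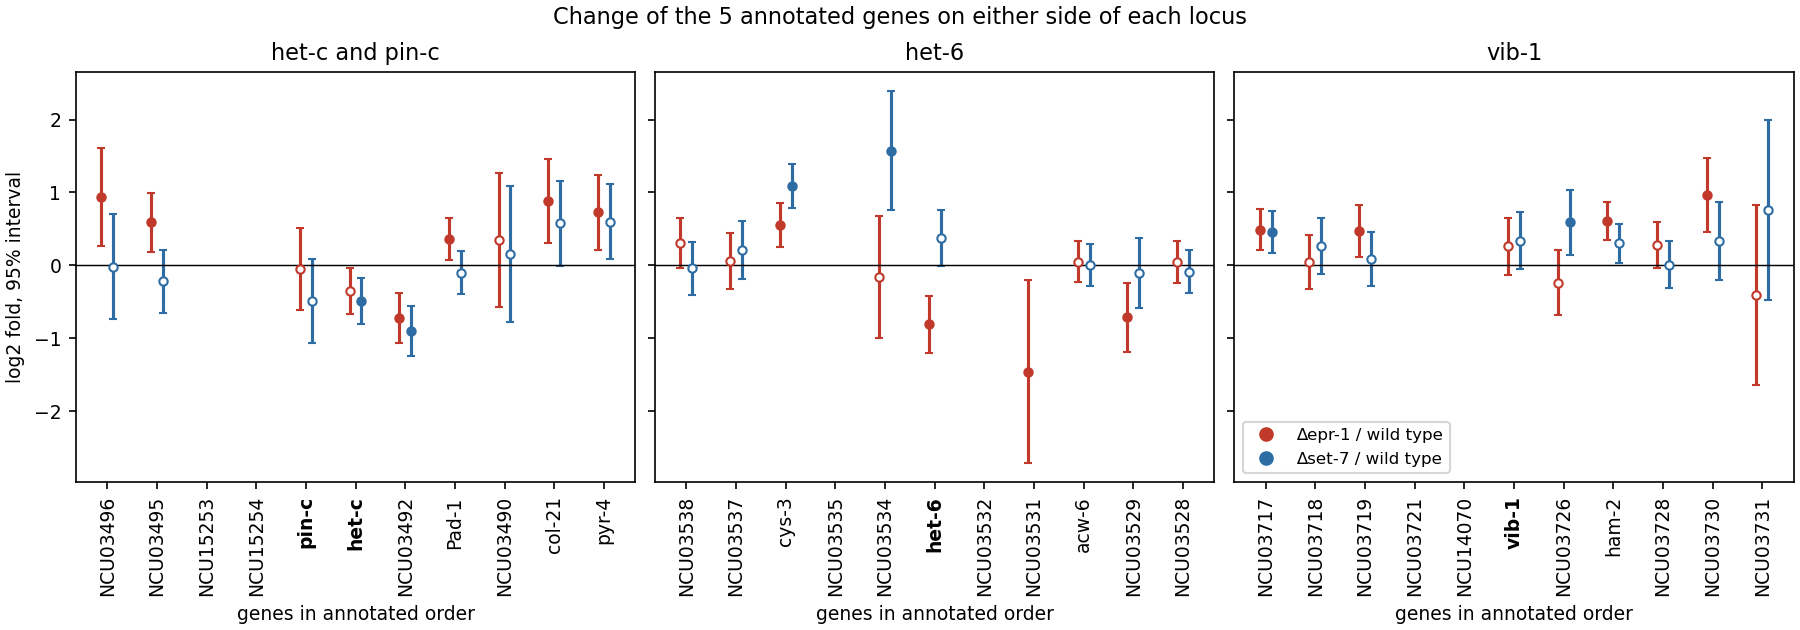
Log2 folds (vertical axis, with 95% intervals) of the genes in annotated order around het-c, het-6 and vib-1, against wild type, from the authors' deposited tables. The first panel is centred on het-c and includes pin-c as a neighbour. Red is ∆epr-1, blue is ∆set-7, filled circles have an adjusted p below 0.05, and names without a circle were not tested or not in the tables. At het-6 (-0.81 in ∆epr-1) the 8 tested neighbours range from -1.46 to 0.55 in ∆epr-1, with 1 called higher and 2 lower. The lowest, NCU03531 (SE 0.64), has a mean of only 6.49 normalized counts.

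The genes most like each of the 4 were found by the distance between their log2 folds in the comparisons of both mutants with wild type, over 8253 other genes, which is a likeness over 2 values only. The distance takes no account of the error or the call of a gene. Closest to het-6 were NCU08999 (distance 0.04), NCU09525 (0.04) and NCU04384 (0.04), and 19 genes, or 0.23%, lay within 0.1. Closest to pin-c were wsc (0.01), mig-12 (0.01) and NCU09370 (0.02), with 42 genes within 0.1. Closest to het-c were NCU08749 (0.01), NCU00524 (0.01) and NCU09363 (0.02), with 54 genes within 0.1. In ∆set-7, where het-c was called, NCU08749, NCU00524 and NCU09363 were not (adjusted Wald p = 0.123, 0.533 and 0.359 in the authors' deposited table). Closest to vib-1 were NCU06078 (0.01), NCU02725 (0.01) and NCU06922 (0.02), with 101 genes within 0.1. Fewer genes thus lay near the pair of folds of het-6 than near those of the other 3. Of the 4 genes, het-6 also had the largest fold against wild type in size, -0.81 in ∆epr-1, and the counts were not corrected for that.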

How the data were processed

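Of 16 samples, the 2 poly(A) RNA-seq libraries of ∆epr-1 were used, and the 14 ChIP-seq and DamID samples were not analysed here. The authors deposited normalized counts (signal), which they made with DESeq2 per the file headers, and 4 columns of this table, for wild type and ∆set-7, were not used here because they belong to no sample of this series. Bowtie2, DESeq2 and deepTools are named in the submitters' processing notes. Their versions, the genome build and the counting strand are not given in the sources used here. Libraries were stranded, per the labels' protocols. Both ∆epr-1 columns gave whole reads for 100% of values (within 0.01 of a whole number; size factors 1.22 and 1.18), and no count test was run because all recovered reads belong to one genotype. The 4 entries that name no gene held 19.1% and 17.5% of the reads and were left out.

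The deposited comparison tables hold log2 folds with standard errors, a Wald score and p-values with Benjamini-Hochberg adjustment, per the file headers, from a single DESeq2 fit of 6 libraries. Folds were turned to put the mutant over wild type and ∆epr-1 over ∆set-7. The sources used here do not say whether the authors moderated them, but the standard errors are those of moderated folds. In ∆epr-1 against wild type, NCU03535, NCU03532 and NCU03721 had means of only 1.47, 1.73 and 1.70 normalized counts. Their standard errors were 0.51, 0.49 and 0.58, which is small for so few reads. Folds of genes with few reads or a wide spread are therefore likely drawn towards 0. A gene was called when its adjusted p was below 0.05, and genes without an adjusted p were left out. Fold intervals are 95% normal intervals from the deposited standard errors. Implied levels were solved from the deposited mean over 6 libraries and the folds. To leave out a ∆epr-1 library, the fold was shifted to the remaining library (pseudocount 0.5) and its part of the variance, solved from the 3 standard errors, was doubled. No library of ∆set-7 against wild type could be left out. Levels of different genes were not compared, since no gene length of the authors' annotation was used. The steps were tested on simulated data. Named genes were the 4 genes, 2 lists of symbols, neighbours called in all 3 comparisons out of 5 on each side, and the 3 nearest genes by folds, and of the 9730 genes 9729 matched the NC12 annotation. The genes and lists were chosen with earlier results of these data known. Python 3.11.15, pandas 2.3.3 and scipy 1.17.1 were used.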

Additional observations from a re-analysis of the deposited data

Results flagged for a closer look

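The response of het-6 differed between the mutants. It fell in ∆epr-1 against wild type, its fold in ∆set-7 lay on the other side of 0 without passing the test, and the direct contrast of ∆epr-1 with ∆set-7 gave a log2 fold of -1.18 (adjusted p = 3.12e-08 by DESeq2's Wald test) in the authors' deposited table. The ∆epr-1 and ∆set-7 libraries came from different series, which cannot be told apart from genotype here. With one or the other ∆epr-1 library left out the value was -1.34 or -1.04. The contrasts of het-c, pin-c and vib-1 between the mutants did not pass the threshold.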

How the results depend on the processing

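Of 76 values of the 4 genes under the alternatives, 71 kept their direction and side of the threshold, 3 lost a call and 2 changed sign. Only leaving out a ∆epr-1 library could move a fold by much, and both sign changes came from that. The other alternatives reused the deposited fold or only recentred it, so 71 is no measure of stability. The sign changes were those of pin-c in ∆epr-1 against wild type without replicate 2 (0.10, against -0.22 without replicate 1) and of vib-1 between the mutants without replicate 1 (0.10, against -0.28 without replicate 2), neither of which was called in any setting. With an absolute log2 fold of at least 1 required, 615 genes were higher and 966 lower in ∆epr-1 against wild type (2012 and 2110 without it) and 0 of the 4 genes were called. In ∆set-7 the same setting gave 208 and 316 genes (847 and 956 without it) and 0 of the 4, and between the mutants 737 and 957 (1948 and 2097), with het-6 still called. At an adjusted p below 0.01, 534 genes were higher in ∆set-7 and 0 of the 4 genes were called. Both settings are stricter by construction. The fall of het-6 in ∆epr-1 ranged from -0.97 to -0.67 over its 7 alternatives. That of het-c in ∆set-7 was -0.49 (adjusted Wald p from 0.0138 to 0.0178) over 5, none of which left out a library. These 5 reused the deposited fold or only recentred it, so its size could hardly change. The call of het-c was lost under both stricter settings. Filtering of low counts and recentring changed no call of the 4 genes. No paired analysis was possible because the comparisons come from the authors' tables and the labels give no replicate numbers.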
